A study of Mus musculus with 24 samples.

Results

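Growth hormone reaches the liver through a short chain of genes, and 10 of them are described here across sex, genotype and diet: Ghr, Jak2, Stat5a, Stat5b, Socs2, Cish, Igf1, Igfals, Bcl6 and Cux2. They were chosen by symbol as the receptor, the kinase, the transcription factors, the feedback inhibitors, the secreted products and the STAT5-regulated repressors of the pathway. All 10 were present in both deposited count tables, among 46068 gene symbols in each, and all 10 passed the filter on low counts, which left 11830 genes tested in females and 14873 in males.

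Liver RNA was sequenced from C57BL/6 mice of both sexes of wild-type genotype (WT) or of a line labelled null for Cyp2b9, Cyp2b10 and Cyp2b13 (Cyp2b-null). These 3 genes encode cytochrome P450 enzymes of xenobiotic and lipid metabolism. For 10 weeks the animals received normal chow (ND) or a diet of which 60% was fat (HFD). The 8 groups were WT on ND, WT on HFD, Cyp2b-null on ND and Cyp2b-null on HFD in each sex, with 3 libraries per group; the age of the mice is not given in the sources used here. Male RNA came from the RNeasy Plus Universal and TruSeq Total RNA kits and female RNA from Trizol and the NEB Next Ultra kit, so an effect of sex cannot be told apart from one of the kits, and no test was made between sexes.

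Growth hormone binds its receptor GHR on hepatocytes and activates the tyrosine kinase JAK2, which phosphorylates STAT5A and STAT5B. STAT5 dimers enter the nucleus and switch on Socs2 and Cish, whose proteins damp the receptor, and Igf1 and Igfals, whose proteins circulate together as the growth factor IGF1 and the acid-labile subunit that stabilises it. Rodent growth hormone is secreted in pulses in males and more continuously in females, and this sets much of the sex difference of liver transcripts. BCL6, a repressor higher in male liver, and CUX2, a repressor higher in female liver, act in that sex-biased programme.

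The STAT5 dimer binds the palindrome TTCNNNGAA, which reads alike on both strands. RefSeq promoters on GRCm38.p6, each from 250 bases before to 50 bases after a gene start, were matched by symbol for 9 of the 10 genes and gave 16 windows. The palindrome occurred in windows of 3 genes, Cish, Bcl6 and Igfals. Of 32851 mouse promoter windows of the same length, 8.30% held it at least once, 0.457% at least 2 times and 0.0335% at least 3 times. These shares are per window, while the 3 genes were counted by gene and some genes had more than 1 window. The Cish window held it 2 times and 1 Bcl6 window held it 3 times, and these are shown first, followed by the stretches of Bcl6 and Igfals that hold it once, with the palindrome in capitals, 5′ to 3′ on the gene's strand. A match is a description of the letters and does not show binding.
Cish, chr9:107296654-107296683, + strand, around the RefSeq start and inside exon 1 of GENCODE transcript Cish-201: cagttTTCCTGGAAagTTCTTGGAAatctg
Bcl6, chr16:23981284-23981533, − strand, the 250 bases before a RefSeq start that lies inside the gene and overlaps no GENCODE exon of it: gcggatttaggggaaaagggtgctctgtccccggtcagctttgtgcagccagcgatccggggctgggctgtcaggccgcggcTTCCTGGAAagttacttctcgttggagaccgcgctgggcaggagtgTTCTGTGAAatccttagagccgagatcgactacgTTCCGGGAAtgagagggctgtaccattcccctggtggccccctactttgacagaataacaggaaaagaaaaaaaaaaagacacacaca
Bcl6, chr16:23988952-23988981, − strand, upstream of the GENCODE gene: tagcaaattagTTCTCAGAAttccagaggc
Igfals, chr17:24877597-24877626, + strand, inside the gene and in no exon: cgatctataatTTCTCAGAAaagaggctga
Igfals, chr17:24878162-24878191, + strand, inside the gene and in no exon: tctgccaggtgTTCCTAGAAgaggccctgg
In the Cish stretch the matches begin at the start base and 11 bases after it. In the longer Bcl6 stretch they begin 168, 122 and 88 bases before the start. Windows of Ghr, Jak2, Stat5a, Stat5b, Igf1 and Cux2 did not contain these letters.

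Levels are given in CPM, counts scaled to a common library size, here with TMM factors, and levels of different genes were compared per kilobase of GENCODE M21 exon. In females the order of median CPM per kilobase over 12 libraries was Igf1 at 71.5, Ghr at 52.9, Igfals at 41.2, Stat5b at 10.7, Socs2 at 5.38, Cux2 at 4.96, Bcl6 at 3.23, Cish at 3.10, Jak2 at 2.58 and Stat5a at 2.15. The ranges of Igf1, Ghr and Igfals overlapped and all lay above that of Stat5b, which reached 14.4 CPM per kilobase. In males the order was Ghr at 63.8, Igf1 at 55.4, Igfals at 29.4, Stat5b at 11.3, Bcl6 at 8.41, Jak2 at 3.73, Cish at 2.82, Socs2 at 2.63, Stat5a at 2.34 and Cux2 at 0.0425. Cux2 was thus the lowest of the 10 in the male table and the sixth in the female table, and Bcl6 the fifth in males and the seventh in females.

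In females the feedback inhibitors varied most from library to library, and in males Cux2, which had few counts, varied more. Cish spanned 15.2-fold from the lowest to the highest female library and 17.6-fold in males, and Socs2 spanned 12.3-fold and 8.96-fold. Male Cux2 spanned 59.8-fold, and Ghr spanned 1.56-fold in females and 1.93-fold in males. The median coefficient of variation of CPM among the 3 libraries of a group was 64.3% for Cish and 54.8% for Socs2 in females, against 7.09% for Ghr and 10.2% for Stat5b. In males it was 75.6% for Cux2, 49.9% for Cish, 45.6% for Bcl6 and 31.7% for Socs2, against 13.1% for Ghr and 12.2% for Igf1. A difference between groups of 3 therefore had to be large in Cish or Socs2 to exceed the spread within groups.

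The counts of a library summed to 2005120 to 2661836 in females and 8282510 to 20176050 in males. Hepatocyte markers were high throughout, and their 5 genes together gave 41733 to 138692 CPM in males and 62142 to 116812 CPM in females. Male Cyp2b-null ND library 1 stood apart: 32.7% of its counts were mitochondrial against at most 7.88% in the other male libraries, and its median rank correlation with them was 0.800 against at least 0.965. Among females, WT ND library 1 was the least like the others, with 14.3% mitochondrial counts against at most 8.80% and a median rank correlation of 0.883 against at least 0.915. The female libraries fell on 2 sides of the first principal component, which carried 29.2% of the variance, with 5 libraries on one side: library 1 of WT ND, library 1 of WT HFD, libraries 2 and 3 of Cyp2b-null ND and library 2 of Cyp2b-null HFD. Of the targeted genes, Cyp2b13 had 0 counts in all 6 female Cyp2b-null libraries, and Cyp2b9 fell on ND (450 CPM in WT, 3.91 in Cyp2b-null) and on HFD (392 and 0.811 CPM). In males none of the 3 targeted genes was called between genotypes. Cyp2b9 on ND was higher in the labelled Cyp2b-null libraries, at 1.56 to 3.86 CPM against 0.0865 to 0.342 in WT, which runs against the label, and on HFD it was at 1.83 to 7.57 against 4.67 to 36.1 CPM. Cyp2b13 was at 0.937 to 4.78 CPM in the labelled group and 1.99 to 3.36 in WT on ND, and at 3.30 to 4.33 and 3.76 to 3.89 on HFD. Cyp2b10 was at 0.535 to 0.981 CPM in the labelled group and 2.56 to 8.39 in WT on ND. On HFD its ranges overlapped, at 0.394 to 2.32 and 0.527 to 1.46 CPM. The targeted genes did not settle the male genotype label. The male group is called males labelled Cyp2b-null. In bulk liver RNA, fewer cells of a type and less RNA per cell cannot be told apart.

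None of the 10 genes was called in any of the 10 comparisons at an adjusted p under 0.05 in edgeR's quasi-likelihood test with Benjamini-Hochberg adjustment over all genes tested. In females, the background of genes called was 0.127% for Cyp2b-null against WT on ND, 0.0169% on HFD, 0.0169% for HFD against ND in WT and 0% both for HFD against ND in Cyp2b-null and for the genotype by diet interaction. In males, it was 0.0134% for the genotype comparison on ND and 0% in the other 4. At an unadjusted p under 0.05 the female comparisons held, in that order, 1, 0, 3, 1 and 1 of the 10 genes, against 6.33%, 2.44%, 3.48%, 4.8% and 2.89% of all genes. The male ones held 3, 3, 1, 1 and 1, in the order genotype on ND, genotype on HFD, diet in WT, diet in Cyp2b-null and interaction, against 18.6%, 2.12%, 6.49%, 11.1% and 4.65%. DESeq2 called Socs2 alone of the 10, in females on ND and in males on HFD, where it called 71 and 17 genes in all. The male diet backgrounds of 0% moved with the fit. Diet in WT gave 109 calls over all genes without Cyp2b-null ND library 1, which is in neither group, and 70 in DESeq2. Diet in males labelled Cyp2b-null gave 13 without that library and 110 in DESeq2. The 0% there does not show that diet left male transcripts unchanged.

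Each pair of comparisons that uses the same group shares those libraries, for example the 3 WT ND libraries in the genotype comparison on ND and in the diet comparison in WT. Groups whose 3 libraries did not overlap were counted for the 10 genes and for all genes. In females this held for 1 of the 10 genes for genotype on ND (11.3% of all genes), 1 for genotype on HFD (6.97%), 2 for diet in WT (7.86%) and 2 for diet in Cyp2b-null (11.2%). In males it held for 2 for genotype on ND (22.8%), 5 for genotype on HFD (8.27%), 2 for diet in WT (23%) and 1 for diet in Cyp2b-null (12.1%). The median log2 difference of the 10 genes stayed between −0.13 and 0.14 in every comparison.

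**Figure D1:**
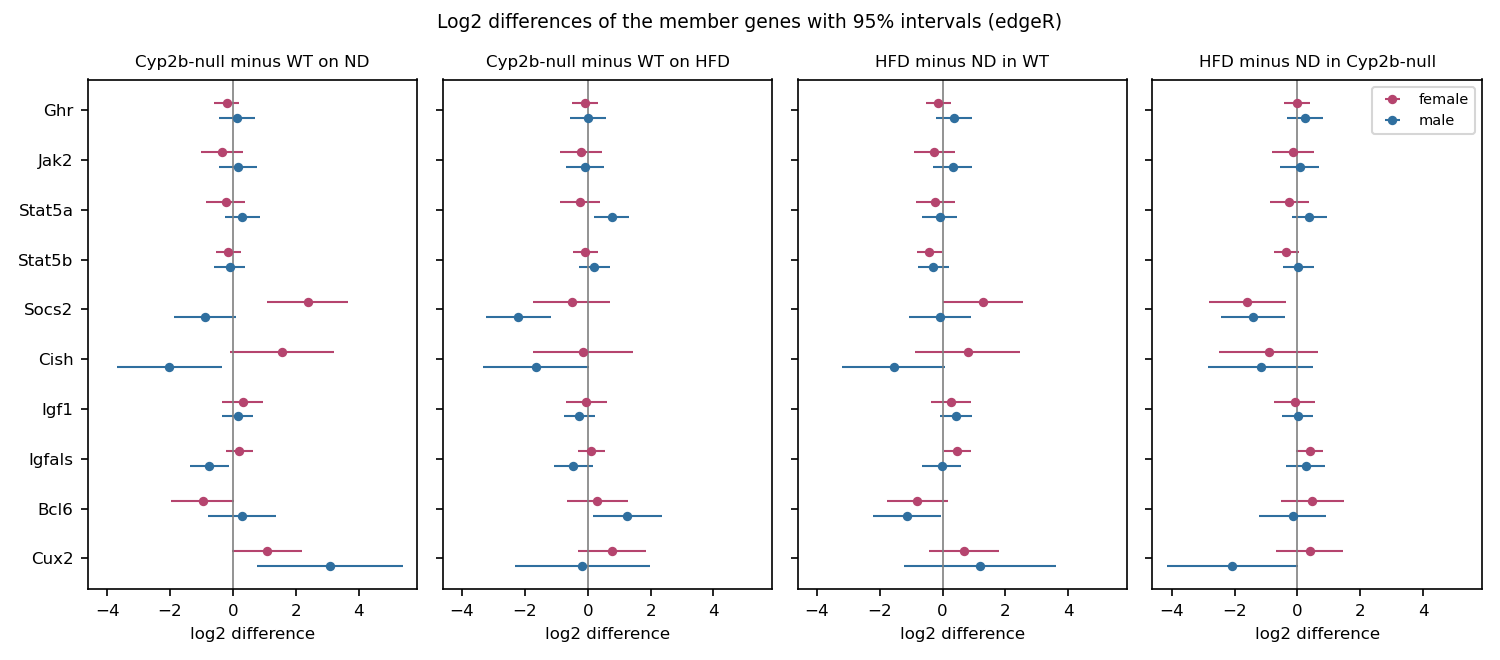
Log2 differences of the 10 genes (horizontal axis, log2 units) with 95% intervals computed from the F values of the edgeR test, in 4 comparisons, females in red and males in blue. Socs2 and Cish lie farthest from 0 in several panels and have wide intervals, and male Cux2, with few counts, has the widest.

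Ghr encodes the growth hormone receptor and lies at chr15:3317760-3583492 on GRCm38. In females it read 664, 551 and 426 CPM in WT ND, 539, 484 and 475 in WT HFD, 504, 463 and 459 in Cyp2b-null ND, and 504, 471 and 436 in Cyp2b-null HFD. These groups overlapped in every comparison, and the estimates ran from −0.20 ± 0.19 (SE, log2; 95% interval −0.60 to 0.20) for genotype on ND to −0.01 ± 0.19 for diet in Cyp2b-null. In males it read 516, 534 and 501 CPM in WT ND and 696, 734 and 561 in WT HFD, so every WT HFD library was above every WT ND library. That difference was 0.36 ± 0.27 log2, with a 95% interval from −0.22 to 0.94 and an edgeR adjusted p of 0.888. The males labelled Cyp2b-null read 388, 728 and 573 CPM on ND, where the lowest value is that of the library that stood apart, and 582, 751 and 679 on HFD. Between genotypes the male estimates were 0.12 on ND (interval −0.45 to 0.70) and 0.02 on HFD (−0.56 to 0.59).

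Jak2, the receptor-bound tyrosine kinase at chr19:29251828-29313080, was low, at 6.87 to 16.1 CPM in females and 10.8 to 25.9 CPM in males. Female groups on ND read 15.7, 15.5 and 14.7 CPM in WT and 16.1, 13.0 and 6.87 in Cyp2b-null, which overlap. The log2 estimate there was −0.36 ± 0.31 (interval −1.02 to 0.31), from 17 to 37 counts per library. In every comparison within a sex the Jak2 groups overlapped and the interval included 0.

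Stat5a and Stat5b, the paralogous DNA-binding effectors, lie 8.63 kb apart on chromosome 11, at 100859351 to 100885169 and 100780731 to 100850724. Because their coding sequences are similar, reads in them may have been split or dropped at counting. Stat5a also overlaps Stat3 on the opposite strand, and strand use in the counting is not given in the sources used here. In females Stat5b read 74.1, 68.4 and 79.8 CPM in WT ND and 62.9, 54.1 and 49.1 in WT HFD, all lower. In Cyp2b-null females it read 70.8, 75.5 and 55.4 CPM on ND and 51.7, 53.7 and 52.8 on HFD, again with no overlap. The WT estimate was −0.42 ± 0.19 log2 (unadjusted p = 0.0384, edgeR adjusted p = 0.9999) and the Cyp2b-null estimate −0.35 ± 0.19 (adjusted p = 0.963). Stat5b was thus lower on HFD in 6 of 6 female libraries than in any ND library of its genotype, by an amount that did not pass the test over all genes. The interaction was 0.07 ± 0.26. In the same comparisons 9 of 9 Kupffer cell and macrophage markers were above 0, with medians of 0.50 in WT and 0.78 in Cyp2b-null. Of all genes 49.7% were above 0 in WT and 51.3% in Cyp2b-null. The summed levels of these 9 markers were 204 to 403 CPM in WT ND, 338 to 592 in WT HFD, 199 to 368 in Cyp2b-null ND and 394 to 701 in Cyp2b-null HFD. Of 5 hepatocyte markers, 2 were above 0 in WT and 0 in Cyp2b-null, with medians of −0.01 and −0.39, and none of these markers was called. Their part in the Stat5b values was not tested.

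Female Stat5a in WT was likewise lower on HFD, at 14.7, 14.99 and 14.0 CPM against 15.7, 18.0 and 17.6 on ND, an estimate of −0.23 ± 0.29. In males the HFD genotype groups parted: Stat5a read 16.6, 10.2 and 16.4 CPM in WT HFD and 24.7, 28.9 and 20.01 in males labelled Cyp2b-null on HFD. The difference was 0.76 ± 0.25 log2 (interval 0.21 to 1.31, unadjusted p = 0.0109, edgeR adjusted p = 0.9998). Stat5b there read 61.7, 54.6 and 60.6 CPM in WT and 64.9, 77.6 and 62.5 in the labelled group, with no overlap and an estimate of 0.21 ± 0.23. On ND neither gene separated the male genotypes.

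**Figure D2:**
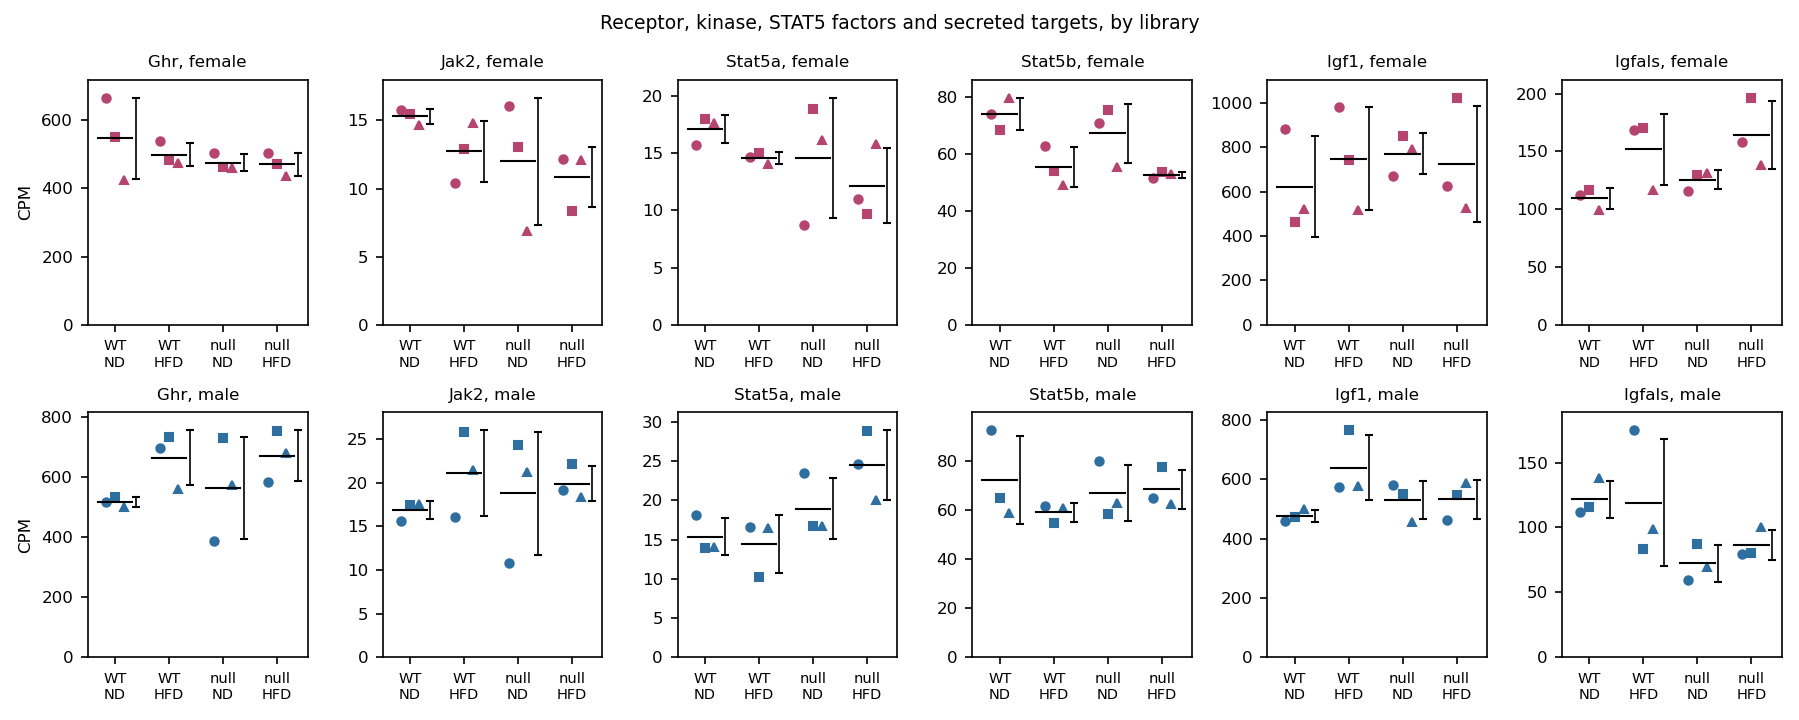
CPM (vertical axis, from 0) of Ghr, Jak2, Stat5a, Stat5b, Igf1 and Igfals in each library of the 4 groups, females above and males below; symbols mark replicate numbers, horizontal lines the mean and bars the SD (n = 3). Female Stat5b lies lower on HFD in both genotypes, and male Stat5a in HFD lies at 20.01 to 28.9 CPM in the Cyp2b-null group against 10.2 to 16.6 in WT.

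Socs2 encodes a SOCS-box protein that marks the activated growth hormone receptor for degradation, and lies at chr10:95385362-95417180. In females it read 17.1, 29.9 and 28.1 CPM in WT ND and 66.9, 211 and 114 CPM in Cyp2b-null ND. The lowest Cyp2b-null library was above the highest WT library, and the means were 25.1 ± 6.93 and 131 ± 73.3 CPM (SD, n = 3). The log2 difference was 2.38 ± 0.58 (interval 1.10 to 3.66), higher in 3 of 3 libraries, with an unadjusted p of 0.0018, which ranked 85 of 11830 genes, and an edgeR adjusted p of 0.251. DESeq2 gave 2.39 and an adjusted p of 0.00132, and across all alternatives the adjusted p ran from 0.00132 to 0.702.

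Other transcripts separated the same female groups. The 18 immediate early genes, which respond rapidly to stimuli, summed to 485 to 1323 CPM in WT ND and 2425 to 3324 CPM in Cyp2b-null ND. The 19 clock genes summed to 490 to 732 CPM and 1002 to 1033 CPM, and among them Dbp, which encodes a clock output factor, was at 31.3 CPM in WT and rose to 204 CPM in Cyp2b-null (2.71 ± 0.29 log2, edgeR adjusted p = 0.000499) and Per3 rose from 2.19 to 13.1 CPM (adjusted p = 0.0268). Per3 lost its call when the compared groups were fitted alone (adjusted p = 0.0656), and also without Cyp2b-null ND library 1 or 3 or WT ND library 1 or 3. With a term for the 2 sides of the female libraries the Socs2 estimate was 2.04 (adjusted p = 0.354), and without WT ND library 1 it was 2.17 (adjusted p = 0.552). The part of these values in the Socs2 difference was not tested.

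On HFD the female genotypes overlapped in Socs2, at 68.3, 90.0 and 25.6 CPM in WT and 35.6, 72.2 and 21.9 in Cyp2b-null (−0.51 ± 0.55 log2, interval −1.73 to 0.71). The diet estimates had opposite signs, 1.29 ± 0.57 in WT and −1.60 ± 0.56 in Cyp2b-null. Dbp was called higher with HFD in WT, at 137 against 31.3 CPM (2.14 log2, edgeR adjusted p = 0.0242). With the replicate block, where the numbers were taken to pair libraries, Dbp was at 2.12 with an adjusted p of 0.102 and was not called, nor was it with the 2 groups alone (adjusted p = 0.312) or without WT ND library 1, WT ND library 3 or WT HFD library 3 (adjusted p up to 0.275). The difference of the Socs2 estimates, the interaction, was −2.89 ± 0.80 (unadjusted p = 0.0041, rank 30 of 11830), with an edgeR adjusted p of 0.9995, so it did not pass over all genes.

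In males Socs2 was lowest in the labelled Cyp2b-null group on HFD. It read 8.16, 11.5 and 7.02 CPM there against 36.1, 29.2 and 58.6 in WT HFD, with no overlap and means of 8.89 ± 2.32 and 41.3 ± 15.4 CPM (SD, n = 3). The log2 difference was −2.22 ± 0.47 (interval −3.25 to −1.18), lower in 3 of 3 libraries, with an unadjusted p of 0.00053, which ranked 8 of 14873 genes, and an edgeR adjusted p of 0.878. DESeq2 gave an adjusted p of 0.00542 and edgeR on the 2 groups alone 0.0404, while the value without male Cyp2b-null ND library 1 was 0.309. Leaving out 1 library of the compared groups kept the estimate between −2.43 and −1.89. On ND the labelled group read 27.2, 21.02 and 22.9 CPM and WT 13.8, 62.9 and 55.0, which overlap (−0.89 ± 0.45). Within the labelled group HFD was lower than ND with no overlap, by −1.41 ± 0.47 log2 (unadjusted p = 0.0104, edgeR adjusted p = 0.434). Immediate early genes summed to 205 to 1274 CPM in the labelled HFD group and 149 to 1227 CPM in WT HFD, which overlap.

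Cish encodes CIS, a related inhibitor that competes with STAT5 for the receptor, and lies at chr9:107296026-107302784, where it overlaps Gm17040 and Gm17041 on the opposite strand. In males it read 6.66, 102 and 109 CPM in WT ND and 22.5, 7.20 and 23.6 in the labelled Cyp2b-null ND group. WT ND library 1 lay below all 3 libraries of the labelled group and the other 2 WT libraries lay above them, so the groups overlapped, and the estimate was −2.03 ± 0.77 log2 (unadjusted p = 0.0212, edgeR adjusted p = 0.226). On HFD it read 14.1, 22.1 and 37.4 CPM in WT and 8.22, 9.09 and 6.16 in the labelled group, with no overlap, an estimate of −1.65 ± 0.77 and an adjusted p of 0.9998. WT ND library 1 was low in Socs2 and Cish alike, at 13.8 and 6.66 CPM.

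Female Cish read 4.17, 30.9 and 8.82 CPM in WT ND, 43.9, 63.3 and 21.03 in Cyp2b-null ND, 39.4, 18.7 and 16.9 in WT HFD and 14.1, 43.5 and 10.9 in Cyp2b-null HFD. All groups overlapped, from 9 to 141 counts per library. The ND genotype estimate was 1.56 ± 0.74 log2 (interval −0.09 to 3.21, edgeR adjusted p = 0.801), of the same sign as that of Socs2, and 1.12 without WT ND library 1.

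**Figure D3:**
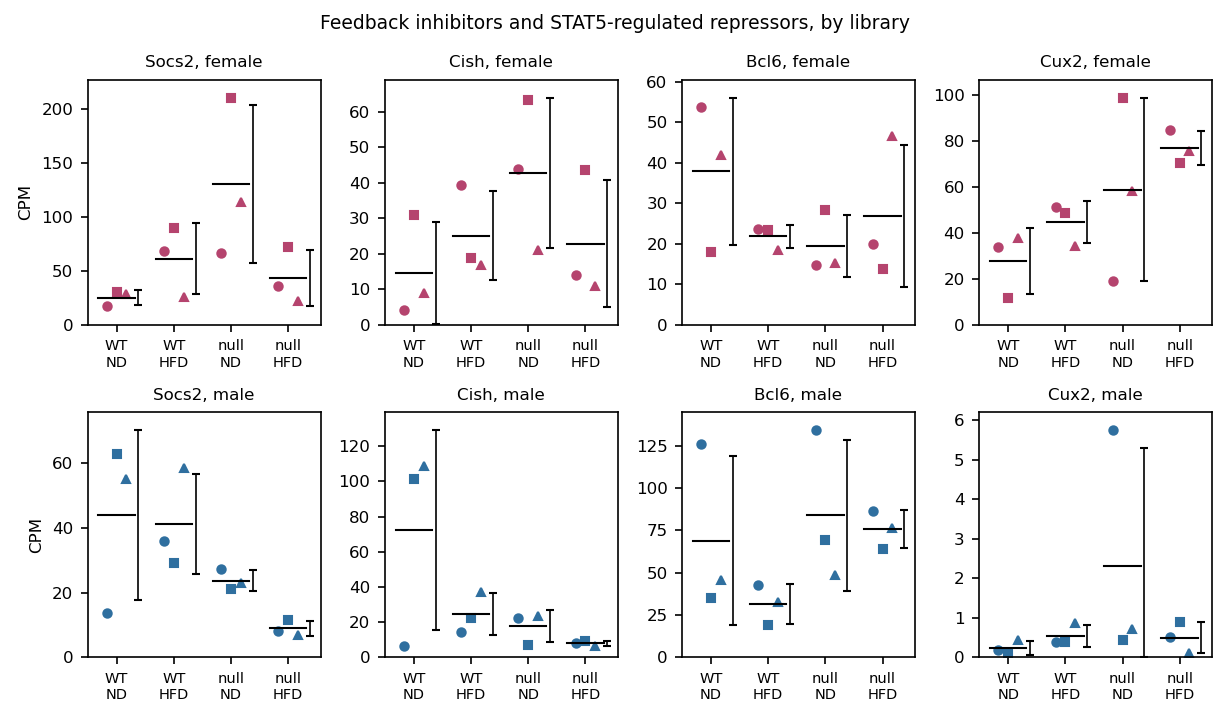
CPM (vertical axis, from 0) of Socs2, Cish, Bcl6 and Cux2 in each library of the 4 groups, females above and males below; symbols mark replicate numbers, horizontal lines the mean and bars the SD (n = 3; bars end at 0). Female Socs2 in Cyp2b-null ND (66.9 to 211 CPM) lies above WT ND (17.1 to 29.9), and male Socs2 in Cyp2b-null HFD (7.02 to 11.5) lies below WT HFD (29.2 to 58.6).

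Socs2 and Cish varied together across libraries. On log2(CPM + 1) over the 12 male libraries Pearson's r was 0.863 (permutation p = 0.00034, adjusted 0.00408) and Spearman's rho 0.853 (permutation p = 0.0008, adjusted 0.00480), two-sided, with adjustment over the p-values of all 6 relations computed. In all 6 relations the permutations shuffled values over the 12 libraries without regard to group. Differences between groups therefore enter these p-values, and the values among deviations from group means have no p. Without the 2 libraries farthest from the median of Cish the male r was 0.829, among deviations from group means it was 0.909, and without Cyp2b-null ND library 1 it was 0.862. In females r was 0.763 (permutation p = 0.00403, adjusted 0.0161) and rho 0.748 (permutation p = 0.0074, adjusted 0.0222). The female r was 0.562 without the 2 farthest libraries, 0.583 among deviations from group means and 0.523 within the 7 libraries on one side; the side of 5 libraries is too small for a value.

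Bcl6 tended the other way, though less firmly. Its r with Cish was −0.688 in females (permutation p = 0.0142, adjusted 0.0283) with rho −0.601 (permutation p = 0.0427, adjusted 0.0677), and −0.530 in males (permutation p = 0.0776, adjusted 0.0931) with rho −0.580 (adjusted 0.0697). The female value was −0.751 without the 2 farthest libraries, −0.563 among deviations from group means and −0.835 within the side of 7. With Socs2 the male rho was −0.706 (permutation p = 0.0129, adjusted 0.0283) and r −0.587 (adjusted 0.0677), and the female r −0.474 (adjusted 0.130), which was −0.197 among deviations from group means. Libraries of a sex share a kit and a depth range, and correlation across 12 libraries does not order the genes in a chain.

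**Figure D4:**
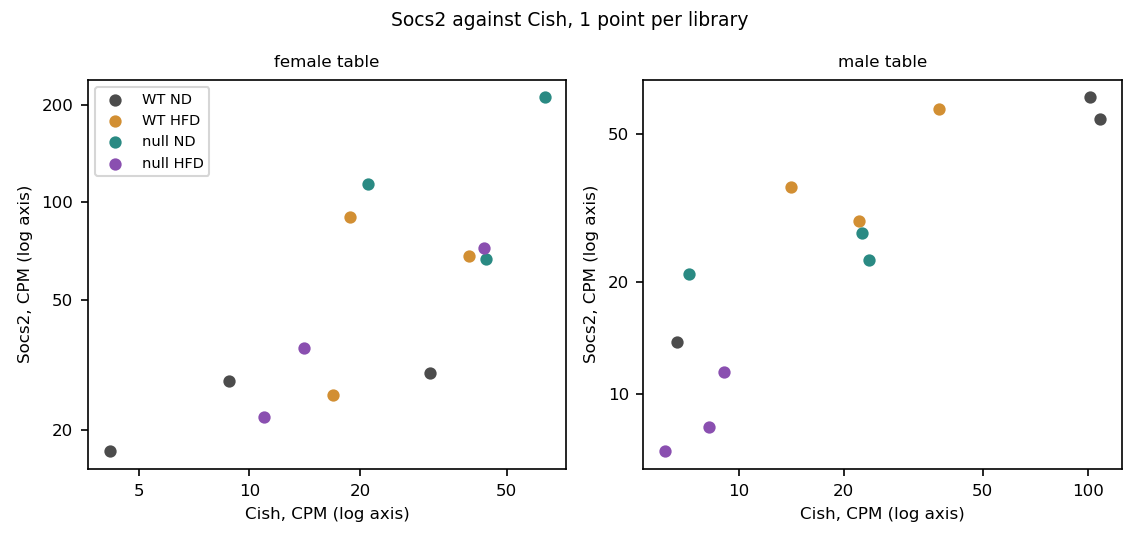
Socs2 CPM against Cish CPM, both on log axes, 1 point per library coloured by group, females left and males right. Libraries high in Cish are high in Socs2 in both panels, and the 3 male Cyp2b-null HFD libraries lie together at the low end.

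Igf1, the growth factor itself, lies at chr10:87858265-87937042 with Igf1os on the opposite strand. In females it read 884, 462 and 523 CPM in WT ND, 982, 745 and 519 in WT HFD, 673, 851 and 793 in Cyp2b-null ND and 624, 1024 and 527 in Cyp2b-null HFD. All these groups overlapped, and the genotype estimates were 0.31 ± 0.30 log2 on ND (interval −0.34 to 0.95) and −0.05 ± 0.30 on HFD. Without WT ND library 1 the ND estimate was 0.65 (edgeR adjusted p = 0.609). The values followed the 2 sides of the female libraries: Igf1 ran from 793 to 1024 CPM in the 5 libraries and from 462 to 745 CPM in the 7. Of the 10 genes Igf1 was the one whose sides did not overlap, and the sides cross all 4 groups. The sides were drawn from the values of all genes tested, Igf1 among them, so some genes must part by side. The share of all genes that did so is not given here, and the split is a description only. In males Igf1 read 458, 472 and 499 CPM in WT ND and 574, 765 and 577 in WT HFD, with no overlap and an estimate of 0.42 ± 0.23 (edgeR adjusted p = 0.829). The males labelled Cyp2b-null read 582, 550 and 457 CPM on ND and 461, 548 and 588 on HFD, where the diet estimate was 0.01 ± 0.23.

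Igfals, the acid-labile subunit at chr17:24865997-24882010, was lower on ND in males labelled Cyp2b-null. It read 112, 116 and 138 CPM in WT ND and 59.8, 87.5 and 69.6 in the labelled group, with no overlap. The difference was −0.75 ± 0.29 log2 (interval −1.37 to −0.13, unadjusted p = 0.0221, edgeR adjusted p = 0.226) and was −0.63 without the library that stood apart (adjusted p = 0.251). On HFD the male groups overlapped, at 175, 83.5 and 99.0 CPM in WT and 79.6, 80.3 and 100.3 in the labelled group. In females Igfals leaned higher on HFD: WT went from 113, 117 and 99.5 CPM on ND to 168, 171 and 117 on HFD (0.47 ± 0.20, unadjusted p = 0.0337, adjusted p = 0.9999), and Cyp2b-null from 116, 130 and 131 to 158, 197 and 138 with no overlap (0.39 ± 0.20, adjusted p = 0.963). The female genotypes overlapped on both diets.

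Bcl6, the male-biased repressor at chr16:23965052-23988852, overlaps Gm37419 on the opposite strand. In males it read 42.8, 19.1 and 32.5 CPM in WT HFD and 86.5, 64.1 and 76.3 in the labelled Cyp2b-null HFD group, with no overlap. The difference was 1.26 ± 0.50 log2 (interval 0.17 to 2.35, unadjusted p = 0.0267, edgeR adjusted p = 0.9998). On ND WT read 126, 34.8 and 45.4 CPM and the labelled group 134, 69.0 and 48.6, where replicate 1 of both was the highest and the groups overlapped (0.28 ± 0.49, and −0.23 without the library that stood apart). WT ND library 1, the WT ND library with the lowest Socs2 and Cish, had the highest Bcl6. Diet in WT males gave −1.13 ± 0.50 with overlapping groups (unadjusted p = 0.0438, adjusted p = 0.753), and −0.35 when WT ND library 1 was left out. Female Bcl6 read 53.7, 18.0 and 42.0 CPM in WT ND and 14.8, 28.3 and 15.4 in Cyp2b-null ND, which overlap (−0.97 ± 0.46, adjusted p = 0.789; −0.64 without WT ND library 1).

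Cux2, the female-biased repressor at chr5:121856366-122050102, overlaps Gm3970 and Gm15637 on the opposite strand. Its counts were 23 to 220 per library in females and 1 to 43 in males. Female Cux2 read 51.4, 48.7 and 34.2 CPM in WT HFD and 84.9, 70.3 and 75.8 in Cyp2b-null HFD, with no overlap (0.78 ± 0.49, interval −0.30 to 1.86, edgeR adjusted p = 0.9998). On ND it read 33.8, 11.5 and 37.8 CPM in WT and 19.1, 98.8 and 58.2 in Cyp2b-null, which overlap (1.07 ± 0.51, adjusted p = 0.795). In males on ND it had 2, 1 and 5 counts in WT and 43, 8 and 11 counts in the labelled group, or 0.173, 0.108 and 0.427 CPM against 5.75, 0.430 and 0.719. The difference was 3.09 ± 1.06 log2 (unadjusted p = 0.0130, adjusted p = 0.213), and 1.19 (adjusted p = 0.451) without the library with 43 counts, which is the one that stood apart. On HFD the male genotypes overlapped at 0.0962 to 0.891 CPM.

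The rest of the pathway was read from lists. None of the 11 female and 13 male genes tested from the receptor complex, kinases and adaptors was called in any comparison. In females on ND 4 of 11 were above 0, with a median of −0.05 log2 against −0.02 over all genes, and Irs1, an insulin and IGF1 receptor adaptor, was at 28.6 CPM in Cyp2b-null against 42.6 in WT (unadjusted p = 0.0307). In males labelled Cyp2b-null the prolactin receptor gene Prlr, a relative of Ghr, was at 74.0 CPM on ND and 144 on HFD (0.96 ± 0.31, edgeR adjusted p = 0.434). None of the negative regulators of JAK-STAT signalling was called either, of 15 tested in females and 16 in males. Among them Socs3, the cytokine-induced inhibitor, was at 42.5 CPM on ND and 5.14 on HFD in males labelled Cyp2b-null (−3.03 ± 0.84, adjusted p = 0.411; 0.0144 in DESeq2), and −1.50 without the library that stood apart.

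Other STAT factors and the hepatic partners of STAT5 numbered 17 tested in females and 18 in males, with no call. Cebpb, an acute-phase transcription factor, was at 309 CPM in female Cyp2b-null ND against 125 in WT ND (1.31 ± 0.30, edgeR adjusted p = 0.128; 0.0115 in DESeq2). Onecut1, a hepatocyte factor that binds beside STAT5 in female-biased genes, was at 11.7 CPM in males labelled Cyp2b-null on ND against 97.3 in WT (−3.03 ± 0.97, adjusted p = 0.213). The IGF axis, the binding proteins and receptors, had 9 genes tested in each sex with no call. In females on ND 8 of 9 were above 0, where 47.4% of all genes were above 0. The median of the 9 was 0.35, and 0.19 without WT ND library 1. DESeq2 gave a median of 0.03 and the fit with no filter on low counts 0.01. Both also took in list genes that the filter had removed, so these are not medians of the same 9 genes. Igfbp1, an insulin- and stress-responsive binding protein, was at 494 CPM in female Cyp2b-null ND and 93.5 in WT ND (2.40 ± 1.12, edgeR adjusted p = 0.801).

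Male-biased liver genes that depend on growth hormone were mostly lower in males labelled Cyp2b-null on ND. Of 25 tested, 23 were below 0, with a median of −0.61 log2 against 0.06 over all genes, where 53.7% were above 0, and none was called. Elovl3, a fatty acid elongase, was at 45.4 CPM against 391 in WT ND (−3.10 ± 0.53, edgeR adjusted p = 0.122; 2.04e-06 in DESeq2; 0.0333 without Cyp2b-null ND library 2) and Selenbp2 at 249 against 838 (adjusted p = 0.213). The fit without Cyp2b-null ND library 2 kept the library that stood apart. It called 724 genes in all, against 2 in the main fit. Without Cyp2b-null ND library 2 the median was −1.22. Without the library that stood apart 20 of 25 were below 0 and the median was −0.24, and the 15 immediate early genes tested had a median of −1.51 in place of −0.11. The 5 hepatocyte markers summed to 41733 to 80646 CPM in the labelled ND group and 108093 to 138692 CPM in WT ND. All 6 of 6 lymphocyte markers tested were above 0, at low sums of 11.6 to 43.8 CPM against 7.69 to 11.5 in WT ND. The other lists were mixed, with 6 of 9 Kupffer cell and macrophage, 5 of 8 stellate cell and matrix, 2 of 6 endothelial and 1 of 4 biliary markers above 0. The part of these values in the lower male-biased genes was not tested.

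On HFD the male genotypes did not show that tilt, with 15 of 25 male-biased genes above 0 and a median of 0.07, which ran from −0.25 without WT HFD library 3 to 0.22 without Cyp2b-null HFD library 1. The interaction was above 0 in 22 of 25 with a median of 0.52 and no call, against 46.5% above 0 and a median of −0.05 over all genes. It contains the ND genotype difference with its sign turned, so it is not a result apart from the lower values on ND. That median of 0.52 was 0.29 without Cyp2b-null ND library 1 and 0.996 without Cyp2b-null ND library 2. In WT males 21 of 25 were below 0 on HFD against ND, with a median of −0.31, where 51.9% of all genes were above 0. That median was −0.65 without WT HFD library 1 and −0.03 without WT HFD library 3. All 5 hepatocyte markers were below 0 there, with a median of −0.37 and sums of 82590 to 100368 CPM in WT HFD against 108093 to 138692 in WT ND, and their part in the lower values was not tested. In females on ND 14 of 18 male-biased genes tested were above 0 in Cyp2b-null with a median of 0.53, where 47.4% of all genes were above 0, and none was called. Serpina12 and Selenbp2 were among them, and the median was 0.20 without Cyp2b-null ND library 3. The male genotype comparison on ND and the male diet comparison in WT share the WT ND libraries.

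Female-biased liver genes had 30 tested in females and 25 in males. Cyp2a4, a steroid hydroxylase gene that is higher in female liver, was called higher on ND in Cyp2b-null females and in males labelled Cyp2b-null. In females it went from 410 to 1281 CPM (1.64 ± 0.23, edgeR adjusted p = 0.00679), and in males from 3.02 to 485 CPM (7.33 ± 0.68, adjusted p = 0.00226). The male call was lost when the 2 groups were fitted alone (adjusted p = 0.151), and the near-identical Cyp2a5 makes the reads of this gene uncertain. The Cyp2a genes lie beside the targeted Cyp2b genes, and the part of that position in the Cyp2a4 values was not tested. Over the whole list on ND, Cyp2a4 included, 16 of 30 were above 0 in females with a median of 0.07, and 11 of 25 in males with a median of −0.13. The female median was −0.19 without Cyp2b-null ND library 1, and the male one was 0.03 without Cyp2b-null ND library 1 and −0.39 without Cyp2b-null ND library 3. In females on HFD 24 of 30 were above 0 in Cyp2b-null, with a median of 0.28 against −0.01 over all genes, where 49.1% were above 0. None of the 30 was called.

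Lipid genes that rise in livers lacking growth hormone signalling, such as Cd36, Pparg, Cidec and Vldlr, had 7 tested in females and 10 in males, with no call. In WT males 9 of 10 were above 0 on HFD, with a median of 0.89 against 0.02 over all genes, where 51.9% were above 0. Cidec, a lipid droplet protein gene, was there at 8.98 CPM against 2.33 (1.92 ± 0.59, edgeR adjusted p = 0.541). A part of growth hormone signalling in these values was not tested. In males labelled Cyp2b-null 5 of 10 were above 0 on HFD, with a median of 0.14, which was −0.02 when the 2 groups were fitted alone, 0.04 without Cyp2b-null HFD library 3 and 0.51 without the library that stood apart. In females Vldlr, the very low density lipoprotein receptor gene, was at 11.9 CPM in Cyp2b-null ND against 23.6 in WT ND (−0.99 ± 0.24, adjusted p = 0.177).

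Genes with the most similar pattern over the 12 libraries of a table were found by Pearson's r of log2 CPM among 8538 female and 8463 male genes, as a description. In females those closest to Socs2 were Gramd3 (0.907), Pemt (0.907) and Nt5c3 (0.902), and those closest to Cish were Foxq1 (0.915), Apoa5 (0.877) and Arhgef26 (0.870). In males those closest to Socs2 were Ang (0.908), Tuft1 (0.881) and Ces3b (0.874), and those closest to Cish were Foxa2 (0.914), Ces3b (0.912) and Serpina4-ps1 (0.909), so Ces3b appeared under both inhibitors. For Igf1 they were Sema5b (0.943), Hsbp1 (0.942) and Fars2 (0.937) in females and Vnn3 (0.805), Serpina6 (0.794) and Mto1 (0.776) in males. For Bcl6 they were Mertk (0.827), Jmjd6 (0.816) and Mark3 (0.813) in females and Tnfaip2 (0.937), Cryl1 (0.847) and Ciapin1 (0.841) in males. No gene was named for the same member in both tables.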

How the data were processed

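Total liver RNA of 24 libraries was sequenced. The deposited tables hold raw counts per gene symbol, 1 table per sex. The tools were edgeR, Subread, GSNAP, Trimmomatic and FastQC on GRCm38.p5, per the submitters' processing notes; the role of each, its settings and strand use: not given in the sources used here. Groups follow the titles, which give diet and genotype; for 6 of the female samples the labels give another genotype elsewhere than in the title. Rows of 1806 repeated male symbols were summed. Each table was fitted apart with edgeR 4.0.16 (TMM, filterByExpr, robust quasi-likelihood test, 1 coefficient per group over 12 libraries, Benjamini-Hochberg adjustment over all genes tested, called at 0.05), in R 4.3.3. The fit was first run on simulated data with the same spread for every gene and no library that stood apart. That run checked the code and does not show how the test performs on these libraries. Since nothing says that libraries came from separate animals, p-values measure the spread between libraries, which may be technical. The precision is set by 2005120 to 2661836 counts per female library and 8282510 to 20176050 per male library.

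Named genes were the 10 members, list genes called over all genes, the 2 members of each list with the smallest unadjusted p with a mean log2 CPM no lower than 1, and the 3 genes most like Socs2, Cish, Igf1 and Bcl6. The members and lists were chosen with earlier results of these data known. Alternatives were DESeq2 1.42.0, RLE scaling, no low-count filter, the compared groups alone, first rows of repeated symbols, a replicate block, a term for the 2 sides of the female libraries, and each library left out. Same-numbered libraries deviated together in the diet comparison in WT, with correlations of deviations from group means of 0.139 to 0.564 in females and 0.110 to 0.127 in males. The female 0.564 is of library 1 of WT ND and of WT HFD, which lie on the same side of the first principal component. For diet in WT the replicate block was taken to pair libraries, but the main fit had no block. The main estimates of diet in WT are therefore unpaired. In the other comparisons at least 1 pair was at or below 0.1.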

Additional observations from a re-analysis of the deposited data

How the results depend on the processing

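Of 1366 member values recomputed, 1291 kept their direction and their side of the threshold. Of the rest, 72 turned direction, none of them with a main estimate above 0.48 on the log2 scale, and 3 passed the threshold only under an alternative; the cause was not tested. DESeq2 called 1 of the 10 genes, Socs2, in females for genotype on ND and 1 in males for genotype on HFD, and edgeR on the compared groups alone called 1, Socs2, in males for genotype on HFD, against 0 in the main analysis. With the replicate block 0 of the 10 genes were called in every comparison, and female Socs2 for genotype on ND was 2.26 (adjusted p = 0.081). Over all genes, female genotype on ND gave 15 calls in edgeR, 71 in DESeq2, 121 with no filter and 8 with the block; male genotype on ND gave 2, 363, 35 and 1, and 724 without Cyp2b-null ND library 2.

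Leaving out 1 library turned the direction of 35 estimates, given as ranges on the log2 scale. For female genotype on ND this was Stat5a −0.45 to 0.046. For female genotype on HFD these were Bcl6 −0.35 to 0.61, Cish −1.001 to 0.35, Igf1 −0.38 to 0.21, Igfals −0.038 to 0.24 and Stat5b −0.15 to 0.039. For female diet they were Ghr −0.29 to 0.031 in WT, and in Cyp2b-null Bcl6 −0.19 to 0.84, Cux2 −0.031 to 0.99, Ghr −0.067 to 0.039, Igf1 −0.42 to 0.10 and Jak2 −0.42 to 0.13. For the female interaction they were Cux2 −0.72 to 0.30, Ghr −0.045 to 0.28, Igfals −0.25 to 0.029, Jak2 −0.15 to 0.40, Stat5a −0.29 to 0.20 and Stat5b −0.053 to 0.18. For male genotype they were, on ND, Bcl6 −0.23 to 1.05, Ghr −0.14 to 0.33, Jak2 −0.10 to 0.43 and Stat5b −0.25 to 0.10, and on HFD, Cux2 −0.76 to 0.37, Ghr −0.10 to 0.11 and Jak2 −0.25 to 0.084. For male diet they were, in WT, Igfals −0.42 to 0.17, Socs2 −0.51 to 0.26 and Stat5a −0.20 to 0.11, and in Cyp2b-null, Bcl6 −0.42 to 0.36, Igf1 −0.090 to 0.11, Jak2 −0.19 to 0.31 and Stat5b −0.059 to 0.18. For the male interaction they were Cish −0.030 to 0.93, Ghr −0.32 to 0.15 and Jak2 −0.52 to 0.012.

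The term for the 2 sides turned female Cux2 for the interaction to 0.029, Stat5a for the interaction to 0.023, and for diet in Cyp2b-null Ghr to 0.024 and Igf1 to 0.069. With no filter female Ghr for diet in Cyp2b-null was 0.012 and Stat5a for the interaction 0.0038, and with RLE scaling male Igf1 for diet in Cyp2b-null was −0.00027. Female depth limits the genes with few counts, Jak2, Stat5a and Cish, and male Cux2 had as few as 1 count.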
